A study of Homo sapiens with 6 samples.

Results

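The genes described here are 10 targets of the transcription factor NF-kB that are known from retinal pigment epithelium (RPE), taken from the deposited gene count table by symbol: the chemokines CXCL8, CXCL1, CXCL2 and CCL2, the adhesion molecule ICAM1, the mitochondrial enzyme SOD2, the feedback inhibitors NFKBIA and TNFAIP3, and the subunits RELB and NFKB2. They take up 11 of the 58735 rows of the table, because SOD2 is listed under 2 Ensembl gene identifiers. Expression was measured by RNA sequencing in ARPE-19, an established human RPE line. The 3 control libraries, NC, have the genotype label WT. In the 3 libraries labelled OE_CD51_ICD, a form of CD51 is overexpressed, CD51 being the integrin alpha V subunit that ITGAV encodes. How and for how long it was introduced, and whether the cells were 1 clone, is not given in the sources used here. Nothing in the labels says that replicates were grown separately, so the p-values reflect only how these libraries spread, and that spread may be technical.

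NF-kB dimers are held in the cytoplasm by IkB proteins, of which NFKBIA encodes the alpha form. Ligands such as tumour necrosis factor and interleukin-1 act through adaptor proteins and the IkB kinase complex to have IkB degraded, and the dimers then enter the nucleus and switch on chemokine, adhesion and survival genes as well as their own inhibitors. A slower arm of the pathway processes the NFKB2 product into a partner for RELB. RPE cells are known to secrete CXCL8 and CCL2 when they are stimulated with inflammatory cytokines.

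Promoter sequence was matched in RefSeq (GRCh38.p14) for 8 members, and CCL2 and RELB were not matched. The 250 bases before each start were searched on both strands for the 10-base kappaB consensus, for the overlapping kappaB form GGANNTTCC, and for the AP-1 element TGANTCA. Of all 35116 promoters, 9.96% held the consensus, 3.84% held GGANNTTCC and 6.57% held TGANTCA. Among the matched members, CXCL1, CXCL2, NFKBIA, TNFAIP3 and NFKB2 held the consensus. NFKB2 has 3 listed starts and counts on a match at any of them: the first held none of the motifs, and GGANNTTCC was at the third only. GGANNTTCC was found in those 5 and in CXCL8 and ICAM1, and the AP-1 letters were found in CXCL8 only. SOD2 held none of them before any of its 4 listed starts, which says only that these letters are not in those windows. The windows below, written 5′ to 3′ with the matches inside them in capitals, are shown because they hold the motif matches of chemokine, adhesion and inhibitor genes described below. They are CXCL8 (chr4:73740419-73740568, plus strand), CXCL1 (chr4:73869293-73869392, plus strand), CXCL2 (chr4:74099196-74099295, minus strand), NFKBIA (chr14:35404750-35404849, minus strand), ICAM1 (chr19:10270920-10270989, plus strand) and TNFAIP3 (chr6:137867159-137867258, plus strand).
CXCL8: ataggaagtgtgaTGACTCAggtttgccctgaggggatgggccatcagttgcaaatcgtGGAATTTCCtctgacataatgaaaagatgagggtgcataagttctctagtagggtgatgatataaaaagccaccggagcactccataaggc
CXCL1: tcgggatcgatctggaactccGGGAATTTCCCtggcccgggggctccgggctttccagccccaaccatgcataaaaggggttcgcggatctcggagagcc
CXCL2: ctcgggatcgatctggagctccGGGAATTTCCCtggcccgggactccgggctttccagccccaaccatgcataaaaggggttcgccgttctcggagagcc
NFKBIA: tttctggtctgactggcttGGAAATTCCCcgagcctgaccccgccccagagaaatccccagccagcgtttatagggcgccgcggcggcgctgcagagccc
ICAM1: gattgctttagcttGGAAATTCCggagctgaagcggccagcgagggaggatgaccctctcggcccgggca
TNFAIP3: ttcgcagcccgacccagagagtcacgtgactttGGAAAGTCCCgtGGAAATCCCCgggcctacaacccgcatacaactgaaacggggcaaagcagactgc
The ICAM1 window begins at base -200 from its start, and the others end at base -1. These are RefSeq starts, and some differ from the ends of the gene spans given below. The whole ICAM1 window and part of the CXCL8, CXCL2 and TNFAIP3 windows lie inside those spans. In CXCL8 the AP-1 letters begin at base -137 and the kappaB form at base -91. The CXCL1 and CXCL2 windows were 95% identical over 100 aligned columns and carried the same capital letters.

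Total counts ran from 13616694 to 16934668 per library, and 13787 genes passed the low-count filter and were tested. ITGAV, the check of the overexpressed gene, was 89.3 to 113 CPM (counts scaled to each library's total after TMM adjustment) in NC and 371 to 536 CPM in OE_CD51_ICD. The introduced form and the cells' own transcript cannot be told apart in a gene-level count. Of 14 RPE markers, RPE65 and TTR had no count in any library and 8 were tested: PMEL and RLBP1 were higher (log2 0.80 and 0.81), MITF and EZR were lower (-0.56 and -0.67) and 4 did not pass. Their summed level was 7010 to 7530 CPM in NC and 5790 to 6560 CPM in OE_CD51_ICD. Nearly all of it came from KRT8, EZR and KRT18, with means of 3720, 1910 and 1540 CPM in NC and 3460, 1200 and 1440 CPM in OE_CD51_ICD. The sum therefore says little about the other RPE markers. Fibroblast and pericyte markers summed to 214 to 239 CPM in NC and 376 to 416 CPM in OE_CD51_ICD. Nearly all of this was PDGFRB, at 223 ± 13.2 and 389 ± 21.9 CPM (SD, n = 3), and DCN was at 0 in all libraries. RGS5, also tested, had means of 1.09 and 0.712 CPM and did not pass. Lymphocyte and endothelial markers summed to at most 1.16 and 3.45 CPM in any library. Macrophage and microglia markers summed to 3.38 to 4.74 CPM in NC and 31.4 to 37.2 CPM in OE_CD51_ICD. Nearly all of that came from CSF1R, at 3.60 ± 0.894 and 32.9 ± 3.34 CPM, and 6 of those 15 markers, CD163 and LYZ among them, were at 0 in all libraries. The part of these markers in the results below was not tested.

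Of the 10 members, 8 were tested and CXCL1 and CXCL2 were too low to be tested. In OE_CD51_ICD, CXCL8, SOD2, NFKBIA and ICAM1 were lower, CCL2 was higher, and TNFAIP3, RELB and NFKB2 did not pass (edgeR's quasi-likelihood test, Benjamini-Hochberg adjusted p under 0.05). In the same test 51.0% of all genes were called, 25.2% higher and 25.8% lower, so 5 calls among 8 genes lie near the background. The median log2 fold change was -0.22 over the tested members and 0.01 over all genes tested, and the medians of its absolute size were 0.45 and 0.38. The members' median was 0.03 with each library's trend with GC content removed, and -0.14 without NC replicate 3. NC and OE_CD51_ICD values did not overlap in 6 of the 8, against 57.5% of all genes.

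**Figure D1:**
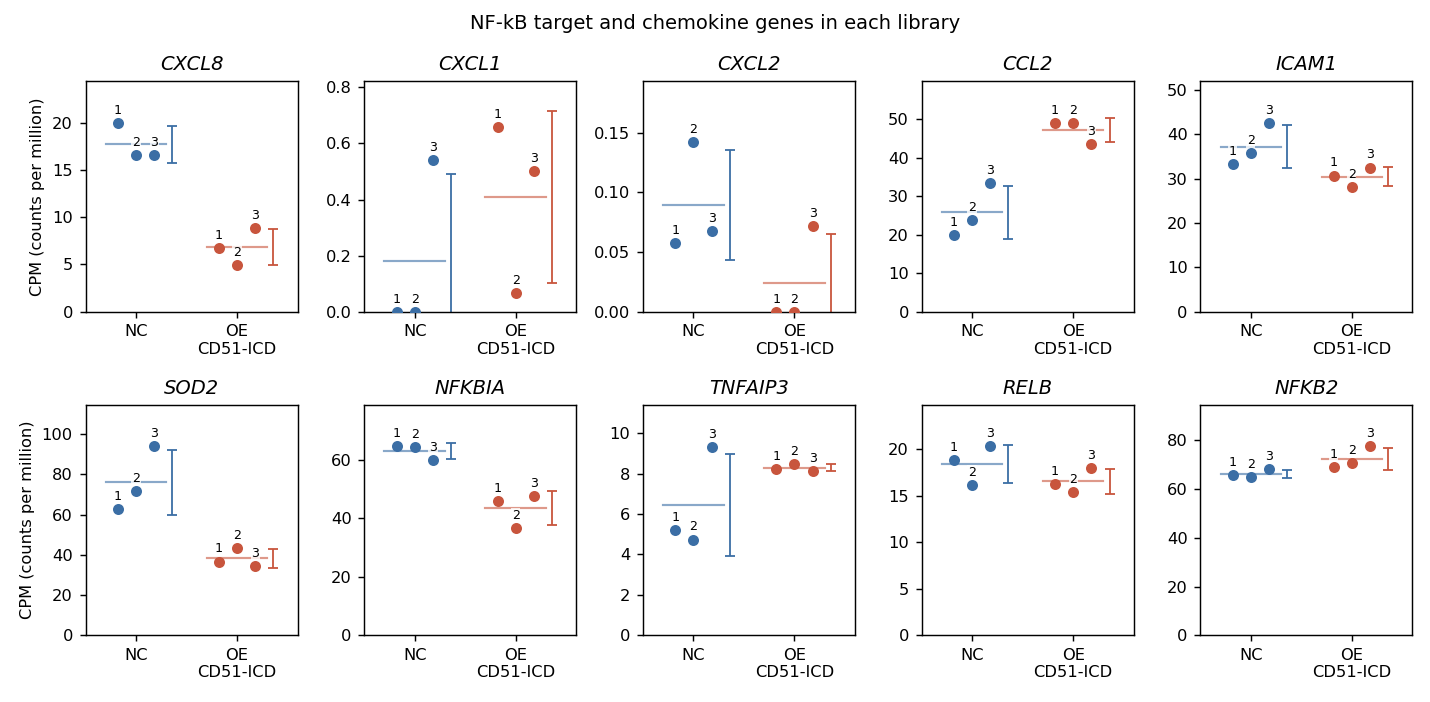
Expression of the 10 genes in each library, in CPM on axes that start at 0. Numbered points are libraries by replicate number, horizontal lines are group means and error bars are SD over 3 libraries, cut at 0 for CXCL1 and CXCL2. CXCL8, SOD2 and NFKBIA lie lower and CCL2 higher in every OE_CD51_ICD library than in any NC library, while the TNFAIP3 value of NC replicate 3 lies apart from the other two.

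CXCL8 (ENSG00000169429, chromosome 4, 73740506 to 73743716, plus strand, GRCh38) encodes interleukin-8, which attracts neutrophils. It had 20, 16.6 and 16.6 CPM in NC replicates 1, 2 and 3, and 6.71, 4.99 and 8.87 CPM in OE_CD51_ICD replicates 1, 2 and 3. Every NC library was above every OE_CD51_ICD library. The mean fell from 17.7 ± 1.98 to 6.86 ± 1.94 CPM (SD, n = 3), a log2 fold change of -1.37 ± 0.17 SE (edgeR adjusted p = 1.09e-07). In bulk RNA, fewer cells that express a gene and less RNA per cell cannot be told apart, here and for every gene below.

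CCL2 (ENSG00000108691, chromosome 17, 34255218 to 34257203, plus strand), the monocyte chemoattractant MCP-1, moved the other way. It had 20, 23.9 and 33.5 CPM in NC and 49.0, 49.1 and 43.5 CPM in OE_CD51_ICD. The groups did not overlap, although NC replicate 3 was well above the other NC libraries. The mean rose from 25.8 ± 6.96 to 47.2 ± 3.23 CPM (SD, n = 3), a log2 fold change of 0.88 ± 0.13 SE (edgeR adjusted p = 1.74e-06). Without NC replicate 3 the log2 fold change was 1.10.

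The ratio of both chemokines can be read inside each library, where scaling between libraries plays no part. It shows only how the genes changed relative to each other, and the direction of each rests on that scaling. Per length, in FPKM (the authors' values, counts scaled to gene length and to 1 constant per library), the ratio of CXCL8 to CCL2 was 0.873, 0.609 and 0.431 in NC. It was 0.120, 0.0887 and 0.178 in OE_CD51_ICD. The ranges did not overlap, and the two-sided exact permutation p of 0.1 is the smallest that 3 libraries against 3 allow.

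CXCL1 (ENSG00000163739, chromosome 4, 73869393 to 73871242, plus strand) and CXCL2 (ENSG00000081041, chromosome 4, 74097035 to 74099293, minus strand) encode neutrophil attractants that lie in the same chemokine cluster as CXCL8. CXCL1 had 0, 0 and 8 counts in NC and 10, 1 and 7 counts in OE_CD51_ICD. The counts varied as much within a group as between groups, and the ratio of the summed rates was 2.37 (95% exact interval 0.982 to 6.31, counting error only). CXCL2 had 1, 2 and 1 counts in NC and 0, 0 and 1 in OE_CD51_ICD, a ratio of 0.264 (0.00535 to 2.66). No difference was detectable in either gene at this depth. Their longest coding transcripts are 87.9% identical over 1118 aligned columns (GENCODE 29), so reads could have been split between them.

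ICAM1 (ENSG00000090339, chromosome 19, 10270835 to 10286615, plus strand) encodes the adhesion molecule that binds leukocyte integrins. It had 33.3, 35.7 and 42.6 CPM in NC and 30.7, 28.2 and 32.5 CPM in OE_CD51_ICD. The groups were separate but close, with NC replicate 1 only just above OE_CD51_ICD replicate 3. The log2 fold change was -0.29 ± 0.11 SE (edgeR adjusted p = 0.0328). This call was lost without NC replicate 3, OE_CD51_ICD replicate 1 or OE_CD51_ICD replicate 2 (edgeR adjusted p = 0.212, 0.0915 and 0.137), and with the trend of counts with GC content removed (log2 -0.09, adjusted p = 0.442), among adjusted p values of 0.0114 to 0.486 over all alternatives.

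SOD2 (ENSG00000112096, chromosome 6, 159669057 to 159745186, minus strand) encodes the manganese superoxide dismutase of mitochondria. It had 62.7, 71.7 and 93.9 CPM in NC and 36.7, 43.5 and 34.5 CPM in OE_CD51_ICD. All NC libraries were higher, and again NC replicate 3 was the highest. The mean fell from 76.1 ± 16.1 to 38.2 ± 4.72 CPM (SD, n = 3), a log2 fold change of -0.99 ± 0.12 SE (edgeR adjusted p = 3.49e-08). The second SOD2 identifier, ENSG00000285441, had no count in any library. The counted gene model overlaps WTAP on the opposite strand, and whether counting used strand is not given in the sources used here. WTAP was 40.3 ± 2.58 CPM in NC and 44.4 ± 4.17 CPM in OE_CD51_ICD and did not pass the test (log2 0.14, edgeR adjusted p = 0.260).

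The 2 feedback inhibitors differed in their calls. NFKBIA (ENSG00000100906, chromosome 14, 35401511 to 35404749, minus strand) had 64.5, 64.2 and 59.7 CPM in NC and 45.8, 36.7 and 47.7 CPM in OE_CD51_ICD. The NC libraries lay close together and above all OE_CD51_ICD libraries. The mean fell from 62.8 ± 2.71 to 43.4 ± 5.89 CPM (SD, n = 3), a log2 fold change of -0.53 ± 0.10 SE (edgeR adjusted p = 5.95e-05).

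TNFAIP3 (ENSG00000118503, chromosome 6, 137867188 to 137883312, plus strand) encodes A20, a ubiquitin-editing enzyme that shuts off NF-kB signalling. It had 5.21, 4.74 and 9.33 CPM in NC and 8.23, 8.47 and 8.15 CPM in OE_CD51_ICD. The OE_CD51_ICD libraries were almost equal, with 2 NC libraries below them and NC replicate 3 above them. The log2 fold change was 0.37 with a 95% confidence interval of -0.05 to 0.79 and did not pass (edgeR adjusted p = 0.136). Without NC replicate 3 it was 0.73 and passed (adjusted p = 0.0033, among 0.0033 to 0.501 over all alternatives).

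The subunit genes of the slower arm showed no call. RELB (ENSG00000104856, chromosome 19, 45001430 to 45038198, plus strand) had 18.8, 16.2 and 20.3 CPM in NC and 16.3, 15.4 and 18.0 CPM in OE_CD51_ICD, and the groups overlapped. Its log2 fold change was -0.16 with a 95% confidence interval of -0.43 to 0.12 (edgeR adjusted p = 0.342). NFKB2 (ENSG00000077150, chromosome 10, 102394110 to 102402529, plus strand) had 65.8, 64.9 and 68.1 CPM in NC and 69.0, 70.5 and 77.5 CPM in OE_CD51_ICD. Its groups were separate by a narrow margin, and its log2 fold change of 0.13 had a 95% confidence interval of -0.05 to 0.31 (edgeR adjusted p = 0.240).

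The members span a wide range of GC content. The longest transcript of CXCL8 has 33.4% GC, which only 0.45% of tested genes are below, and CCL2 and SOD2 have 42.6% and 41.7%. NFKBIA and ICAM1 have 53.1% and 56.9%, and NFKB2 and RELB, at 62.4% and 65.4%, exceed 91.7% and 97.0% of tested genes. With each library's trend with GC removed, NFKB2 passed the test as higher (log2 0.40, edgeR adjusted p = 6.81e-05, among 6.81e-05 to 0.535 over all alternatives). RELB then changed sign (log2 0.15, adjusted p = 0.287, among 0.17 to 0.652). CXCL8, CCL2, SOD2 and NFKBIA were called in the same direction in all 18 alternatives, with log2 fold changes of -1.60 to -1.15, 0.67 to 1.10, -1.22 to -0.75 and -0.60 to -0.41.

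**Figure D2:**
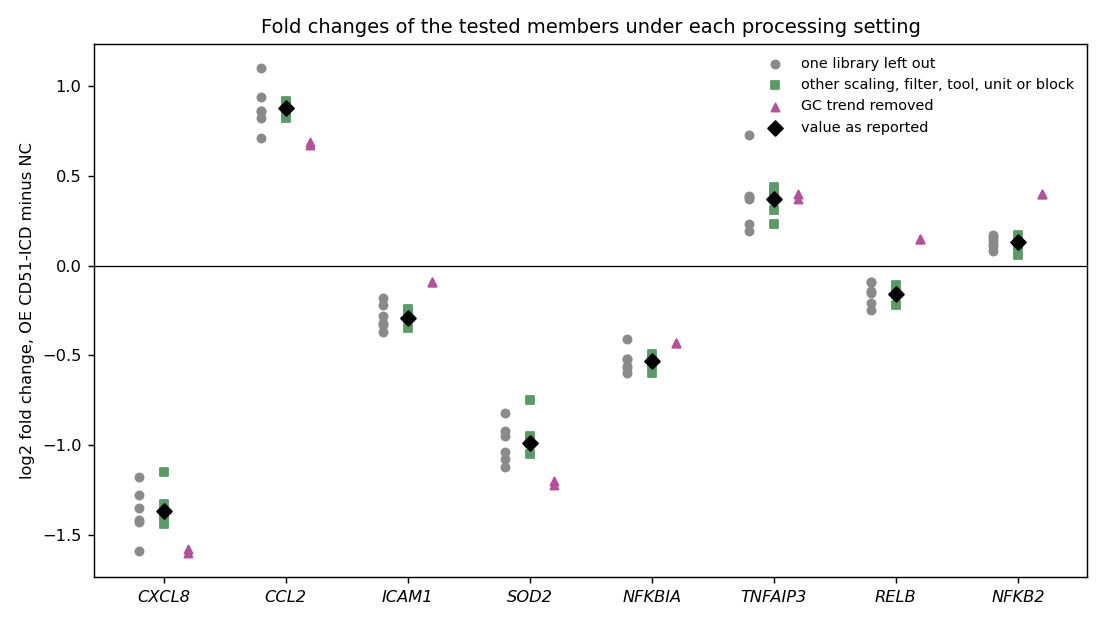
Log2 fold change of the 8 tested members, OE_CD51_ICD minus NC, as reported (black diamonds), with 1 library left out (grey circles), with the GC trend removed (purple triangles) and under the other scalings, filters, tools, units and the replicate block (green squares). Only RELB crosses 0, with the GC trend removed (0.15), and TNFAIP3 spreads from 0.19 to 0.73 when 1 library is left out.

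NC replicate 3 stood out among the control libraries for these genes. It was the highest NC library for 6 of the 8 tested members (CCL2, SOD2, TNFAIP3, ICAM1, RELB and NFKB2) and held all 8 NC counts of CXCL1, whereas it was the highest for 35.2% of all tested genes. CXCL8 and NFKBIA were highest in NC replicate 1. Mitochondrially encoded genes took 5.07% of counts in NC replicate 3 and 3.60% to 4.07% in the other 5 libraries. The part of that difference in these results was not tested.

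Levels of different genes are compared here per length, as FPKM means. In NC the order was NFKBIA (26.3), NFKB2 (14.7), CCL2 (12.9), ICAM1 (9.97), CXCL8 (7.74), RELB (6.04), SOD2 (4.58) and TNFAIP3 (1.26). The ranges over libraries overlapped between NFKB2 and CCL2, CCL2 and ICAM1, and RELB and SOD2. In OE_CD51_ICD, CCL2 stood first at 23.5 FPKM, above NFKBIA at 18.1, and CXCL8, at 2.99 FPKM, overlapped SOD2 at 2.29. CXCL1 and CXCL2 were the lowest in both groups, with means of at most 0.314 FPKM. The FPKM of SOD2 was computed with a gene model of 16493 bases, the longest of the 10.

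**Figure D3:**
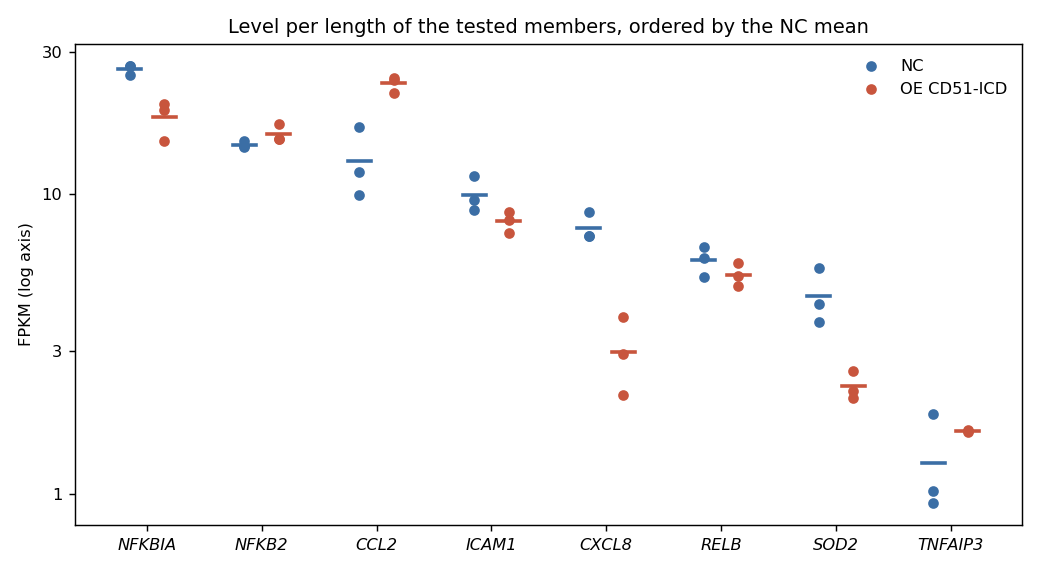
FPKM of the 8 tested members in each library on a log axis, ordered by the NC mean (short lines are group means). CCL2 moves from the third place in NC (12.9 FPKM) to the first in OE_CD51_ICD (23.5 FPKM), and CXCL8 goes from 7.74 to 2.99 FPKM.

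Over the 6 libraries, log2 CPM of CCL2 followed most closely that of CDS2, LPIN3 and TXNIP among the 9573 protein-coding genes whose mean reached 5 CPM (Pearson's r 0.997, 0.997 and 0.996). Of these, TXNIP, a binding protein of thioredoxin, had the change nearest in size, from 20.5 ± 7.02 to 41.0 ± 1.42 CPM (SD, n = 3). CXCL8 was nearest to SRM, spermidine synthase, POC1A and CHMP1A (each r 0.999). POC1A went from 56.8 ± 5.64 to 21.5 ± 5.51 CPM. All these points share the same libraries and the same difference between groups, so the values are a description only.

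The rest of the pathway was taken from 6 gene lists. Core subunits, inhibitors and kinases of NF-kB were 5 higher and 3 lower of 16 tested, with a median log2 fold change of 0.19. That share of calls is near the 51.0% of all genes called. With the GC trend removed, 7 were higher and 3 lower. RELA, the main activating subunit, was 166 ± 5.87 CPM in NC and 196 ± 15.5 CPM in OE_CD51_ICD (log2 0.24, edgeR adjusted p = 0.0135), while NFKB1 was 39.0 ± 3.62 and 44.0 ± 2.46 CPM and did not pass. Without NC replicate 2 RELA did not pass (log2 0.21, adjusted p = 0.0861, among 5.39e-06 to 0.0861 over all alternatives). Both genes were picked once their values were known. NFKBIZ, an atypical IkB protein that works in the nucleus, rose from 5.51 ± 0.645 to 8.79 ± 1.3 CPM. The genes of the TAK1 kinase and its binding partners were divided: MAP3K7, TAB2 and TAB3 rose (log2 0.53, 0.56 and 0.61) and TAB1 fell (-0.46). IKBKB, the kinase that marks IkB alpha for degradation, fell from 59.5 ± 5.05 to 44.2 ± 3.47 CPM. NFKBIB, the beta form of IkB, fell from 24.5 ± 1.12 to 19.1 ± 2.05 CPM (edgeR adjusted p = 0.0149). The NFKBIB call was lost in 5 of 18 alternatives, among them the removal of the GC trend and leaving out NC replicate 1, OE_CD51_ICD replicate 1 or OE_CD51_ICD replicate 2 (adjusted p = 0.345, 0.0589, 0.0629 and 0.0838, among 0.00535 to 0.403).

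**Figure D4:**
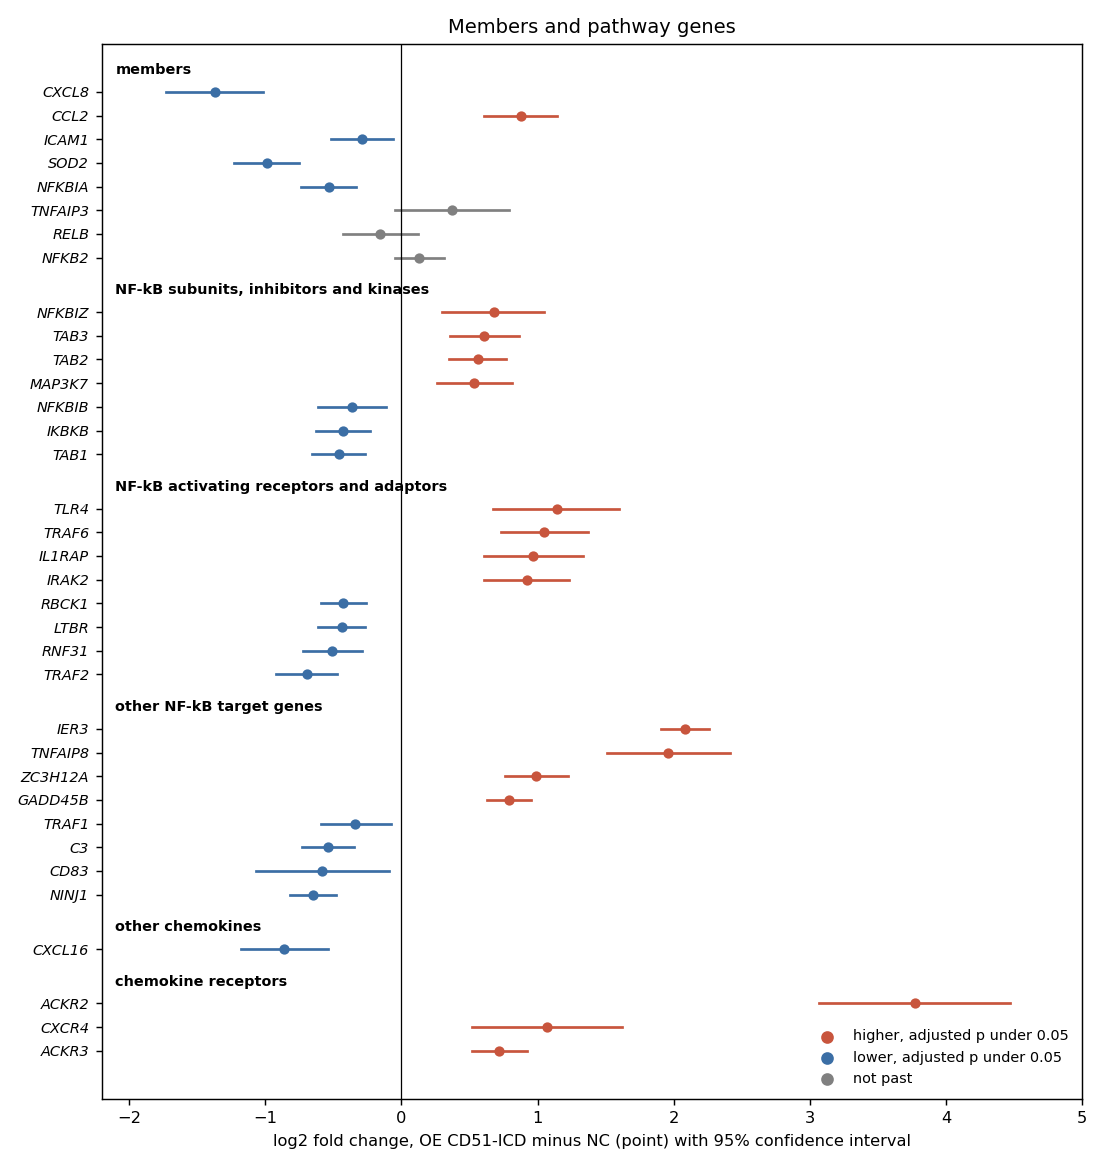
Log2 fold change, OE_CD51_ICD minus NC, with its 95% confidence interval for the 8 tested members and the genes named from the pathway lists, coloured by call. Members lie between -1.37 (CXCL8) and 0.88 (CCL2), and the named genes reach 3.77 (ACKR2).

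Genes of ligands that activate the pathway were mostly near absent, and 2 of 12 were tested. Neither IL18 (171 ± 7.09 and 169 ± 2.49 CPM) nor TNFSF12 (13.6 ± 1.67 and 14.1 ± 0.778 CPM) passed, so 0 were called by edgeR, with 0 at an unadjusted p under 0.05 and 0 by DESeq2 or limma-voom. With the GC trend removed both passed, IL18 as lower (log2 -0.26, adjusted p = 0.00966, among 0.00517 to 0.999) and TNFSF12 as higher (0.31, adjusted p = 0.0434, among 0.0434 to 0.972). TNF had 0 counts over NC and 2 over OE_CD51_ICD. IL1B, interleukin-1 beta, had 17, 9 and 16 counts in NC and 2, 0 and 2 in OE_CD51_ICD, a ratio of summed rates of 0.1 (95% exact interval 0.0262 to 0.277, counting error only). LTB, lymphotoxin beta, had 0, 4 and 1 counts in NC and 18, 11 and 6 in OE_CD51_ICD, a ratio of 7.38 (2.88 to 24.1). IL1B and LTB were under the low-count filter and were chosen after their values were seen.

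Receptors and adaptors upstream of the kinases were 6 higher and 9 lower of 27 tested, with a median log2 fold change of 0.02, again near the 51.0% called among all genes. Genes of the interleukin-1 and Toll-like receptor branch were among both. TLR4, the endotoxin receptor, rose from 2.49 ± 0.108 to 5.50 ± 0.863 CPM, IL1RAP, the interleukin-1 co-receptor, from 5.34 ± 0.885 to 10.4 ± 0.401 CPM, and the ubiquitin ligase TRAF6 from 6.81 ± 0.195 to 14.1 ± 1.04 CPM. IRAK2, a kinase-like adaptor of the same branch, rose by 0.92 on the log2 scale, while the receptor TLR3 and the kinase IRAK1, named after their values were known, had log2 fold changes of -1.11 and -0.39 (edgeR adjusted p = 0.0345 and 0.000362). TLR3 was low, with 22, 22 and 11 counts in NC and 8, 8 and 8 in OE_CD51_ICD. It passed the low-count filter only through its NC counts, so its direction, counted among the 9 lower, was tied to that filter. Neither TLR3 nor IRAK1 was followed singly through the alternatives. TRAF2, an adaptor of the tumour necrosis factor receptors, fell from 46.9 ± 2.07 to 29 ± 4.58 CPM. RNF31 and RBCK1, subunits of the linear ubiquitin ligase, and LTBR, the lymphotoxin beta receptor, had log2 fold changes of -0.51, -0.43 and -0.44. RBCK1 did not pass with the GC trend removed (-0.13, edgeR adjusted p = 0.0791, among 3.94e-06 to 0.114), and only 5 of the list were then lower. TNFRSF1A, the main tumour necrosis factor receptor, was 271 ± 14.1 and 254 ± 18.4 CPM and did not pass.

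Other NF-kB targets were 7 higher and 6 lower of 23 tested, beside 51.0% called among all genes, with a median log2 fold change of -0.02. With the GC trend removed, 9 were higher and 4 lower. Without NC replicate 3, or without OE_CD51_ICD replicate 1, 3 were lower. Among those called, CSF2 passed the low-count filter only through its OE_CD51_ICD counts. PTX3, called lower and chosen after its values were seen, passed it only through its NC counts. The directions of CSF2 and PTX3 were thus tied to the filter, which limits the comparison with all genes. IER3, an early response gene, rose from 86.8 ± 6.09 to 368 ± 22.4 CPM, TNFAIP8 from 2.63 ± 0.833 to 10.4 ± 2.0 CPM, and ZC3H12A, an RNase that degrades cytokine transcripts, from 24.2 ± 2.78 to 47.8 ± 4.97 CPM. GADD45B rose by 0.79 on the log2 scale. NINJ1 fell from 127 ± 5.93 to 80.9 ± 5.25 CPM and the complement gene C3 from 290 ± 47.9 to 200 ± 13.0 CPM. CD83 and TRAF1 had log2 fold changes of -0.58 and -0.34 (edgeR adjusted p = 0.0440 and 0.0239), and each call was lost in 8 of 18 alternatives (0.0177 to 0.184 and 0.005 to 0.21). For CD83 these included leaving out NC replicate 1 or 3 or OE_CD51_ICD replicate 1 or 3 (adjusted p = 0.163, 0.0566, 0.184 and 0.118). For TRAF1 they included leaving out NC replicate 2 or 3 or OE_CD51_ICD replicate 1 or 2 (adjusted p = 0.054, 0.0877, 0.21 and 0.059). CSF2, which encodes the growth factor GM-CSF and was chosen after its values were seen, had 0, 0 and 1 counts in NC and 25, 22 and 29 in OE_CD51_ICD, a ratio of 80.2 (95% exact interval 14.0 to 3210). IL6 was 0.961 ± 0.190 and 0.799 ± 0.633 CPM and did not pass, and VCAM1, SELE and PTGS2 had no count in any library.

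Of 35 other chemokine genes, 23 had no count in any library and 4 were tested, of which 3 were lower, against 25.8% of all genes. Those shares cannot be compared, because 4 genes are few and CXCL14 and CCL26 passed the low-count filter only through their NC counts. CXCL3, with a mean of 1.26 CPM in NC and 0.602 CPM in OE_CD51_ICD, also owed its passing to its NC counts. CXCL16 fell from 16.4 ± 2.34 to 8.99 ± 1.06 CPM (log2 -0.86, edgeR adjusted p = 3.57e-05). CXCL14 had 24, 18 and 14 counts in NC and 1, 1 and 0 in OE_CD51_ICD, and CCL26, or eotaxin-3, had 18, 10 and 16 counts and 1, 0 and 3. Both were called lower and, being under a mean of 1 CPM, were chosen after their values were seen. The longest coding transcript of CXCL3 is 72.1% identical to those of CXCL1 and CXCL2 where aligned. CXCL3 had 13, 15 and 29 counts and 6, 6 and 14, a ratio of summed rates of 0.481 (95% exact interval 0.29 to 0.778, counting error only), and did not pass (edgeR adjusted p = 0.0598). It passed as lower without NC replicate 1, without OE_CD51_ICD replicate 3 and with the replicate number as a block (adjusted p = 0.0241, 0.019 and 0.0474, among 0.019 to 0.391 over all alternatives). None was called higher by edgeR, DESeq2 or limma-voom, with 0 at an unadjusted p under 0.05. Genes tested because of their NC counts could hardly be called higher, so for CXCL14, CCL26 and CXCL3 that absence says little. CCL2 was the only chemokine called higher among those tested, and the same limit applies to that statement.

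Chemokine receptors were called higher in 3 of 4 tested genes, of 22 in the list, against 25.2% of all genes, and 4 genes are few to compare with that share. ACKR2 also passed the low-count filter only through its OE_CD51_ICD counts, so those shares cannot be compared. ACKR2, a scavenger that takes up and degrades CC chemokines such as CCL2, rose from 0.429 ± 0.268 to 5.74 ± 0.592 CPM (log2 3.77 ± 0.34 SE, edgeR adjusted p = 1.42e-10). ACKR3, a scavenger of CXCL12, rose from 70.8 ± 11.1 to 117 ± 10.1 CPM and CXCR4, the signalling receptor of CXCL12, from 2.18 ± 0.182 to 4.59 ± 1.73 CPM. None was lower by edgeR, DESeq2 or limma-voom, with 0 at an unadjusted p under 0.05. For ACKR2 that absence says little, because it was tested through its OE_CD51_ICD counts. CXCR1 and CXCR2, the receptors of CXCL8, and CCR2, that of CCL2, had no count in any library.

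**Figure D5:**
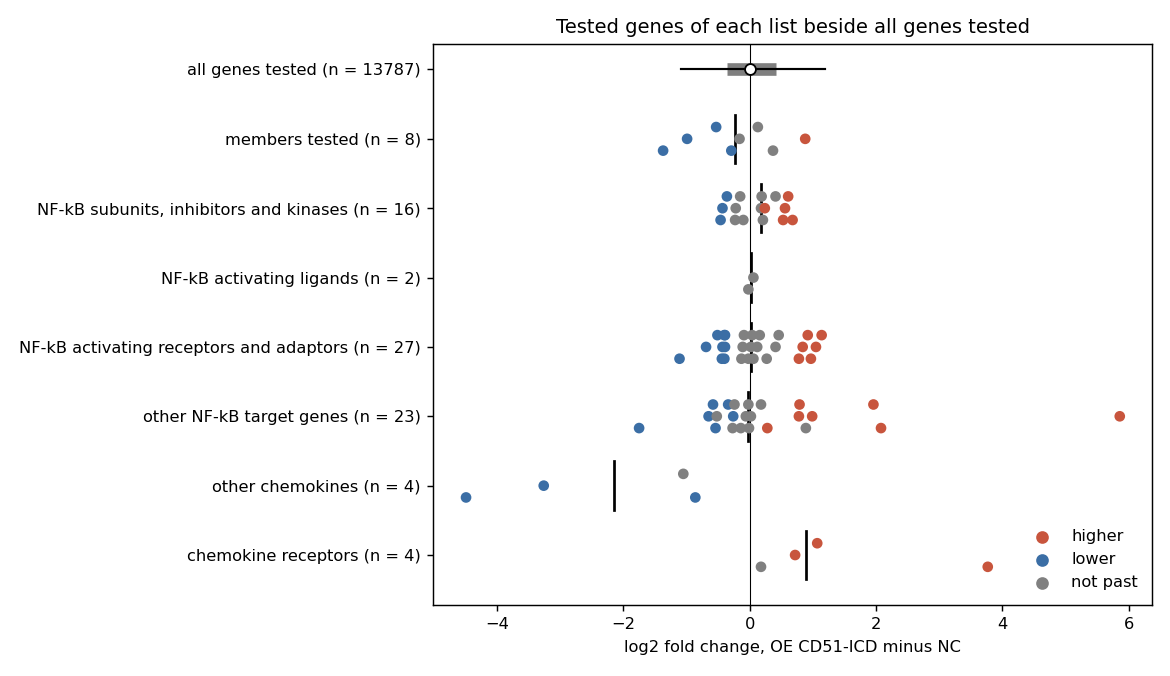
Log2 fold change, OE_CD51_ICD minus NC, of each tested gene in the pathway lists, coloured by call, with list medians as vertical lines. The top bar gives all 13787 genes tested (circle, median 0.01; thick bar, 25th to 75th percentile, -0.36 to 0.42; thin line, 5th to 95th, -1.09 to 1.2). The members' median of -0.22 lies inside the thick bar, with genes on both sides of 0, and it was 0.03 with the GC trend removed and -0.14 without NC replicate 3.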

How the data were processed

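RNA sequencing was done on 6 ARPE-19 libraries, 3 NC and 3 OE_CD51_ICD, grouped and numbered by sample title. Per the labels' protocols, libraries were made with a SMARTER messenger RNA kit. The submitters' processing notes name hg38, and neither the aligner nor the counting program, with its strand setting, is given in the sources used here. The authors deposited whole-number gene counts and FPKM values, 1 column per library, and all 58735 gene identifiers and coordinates matched GENCODE 29. The deposited FPKM were the counts over gene length and 1 constant per library.

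The members, gene lists and alternatives were chosen with earlier results of these data known. The test was edgeR's (version 4.0.16, R 4.3.3) on the deposited counts (filterByExpr, TMM, glmQLFit and glmQLFTest, two-sided, Benjamini-Hochberg over all genes tested, called at an adjusted p under 0.05). CPM use TMM-scaled library sizes. The SE of a log2 fold change came from the F statistic, and its 95% interval from that SE. For genes with few counts, rates summed over each group were compared with a 95% exact (Clopper-Pearson) interval. Such intervals cover counting error only. No 2 libraries of a group agreed within sampling noise (chi-square over degrees of freedom 3.89 to 11.8). The fit was tested on simulated data.

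Named with values were all members, ITGAV, and from each pathway list up to 4 called genes in each direction with the largest change and a mean of at least 1 CPM, plus the 3 genes nearest in pattern to the members with the largest rise and fall. Others are marked as chosen after their values were seen, or are named as not tested or not passed. Alternatives were scaling by library size, upper quartile or RLE, the tools DESeq2 1.42.0 and limma 3.58.1 (voom, or log2(FPKM + 1) and log2(FPKM + 0.1)), other low-count filters, each library left out, the replicate number as a block, and each library's trend with GC content (longest GENCODE 29 transcript, 99.96% of tested genes) removed by lowess offsets. Sequences were searched and aligned with Biopython 1.88.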

Additional observations from a re-analysis of the deposited data

How the results depend on the processing

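Over 18 alternatives, CXCL8, CCL2, SOD2 and NFKBIA kept their direction and call. ICAM1 did not pass with upper-quartile scaling, log2(FPKM + 1), log2(FPKM + 0.1), the GC trend removed, or that with the block (log2 -0.24, -0.26, -0.29, -0.09 and -0.09; adjusted p = 0.0724, 0.0541, 0.0518, 0.442 and 0.486). With the GC trend removed, with or without the block, NFKB2 passed (0.40 in both), RELB turned to 0.15, 2 members in place of 1 were higher, the members' median log2 fold change was 0.03 in place of -0.22, and 5 receptors and adaptors in place of 9 were lower. The cause was not tested. Of the activating ligands, 1 was higher and 1 lower without a low-count filter, because LTB and IL1B were then tested. With the GC trend removed 1 was higher (TNFSF12) and 1 lower (IL18, also with the block added). IL18, which did not pass, turned to 0.03 with upper-quartile scaling and ranged from -0.05 to 0.01 with 1 library left out, and TNFSF12 turned to -0.01 with library size only and ranged from -0.04 to 0.13, both turning sign without NC replicate 3. With 1 library left out, log2 fold changes ranged from -0.37 to -0.18 for ICAM1 and 0.19 to 0.73 for TNFAIP3, members called higher from 1 to 2, activating ligands from 0 to 1 in each direction, and lower other targets from 3 to 5, with 3 without NC replicate 3 and without OE_CD51_ICD replicate 1 in place of 6. Of 28 named genes besides the members, 24 kept their call throughout, and NFKBIB, RBCK1, CD83 and TRAF1 did not.

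The replicate numbers did not pair the libraries: same-numbered libraries' deviations correlated at -0.0503, 0.00134 and 0.0510, and 2 of 6 libraries correlated best with their own number. With the replicate block, 3437 genes were higher and 3552 lower, against 3469 and 3559 without it, and 1 member was higher and 4 lower in both fits. Among the named genes tested this way, CD83 then failed to pass (adjusted p = 0.0518), CXCL3 passed (0.0474), and no other call changed. Depth limits CXCL1 and CXCL2, at 26 and 5 counts in all, and most chemokine and ligand genes.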
